A study of Mus musculus with 12 samples.

Results

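Glucocorticoid receptor target genes were followed in dorsal and ventral hippocampus of mice with a conditional knockout (cKO) of Tet3, which encodes a methylcytosine dioxygenase. The set held 34 genes, taken as a list of names known for regulation by the receptor. All 34 were present in the count table of each region, among 31766 genes listed in either table. Both genotypes carried floxed Tet3 alleles (Tet3 fl/fl). The cKO mice also carried Camk2a-CreERT2, a tamoxifen-dependent Cre driven by the promoter of a kinase of forebrain excitatory neurons, and the controls had no Cre. Cells that do not use that promoter are not targeted by the Cre. Tamoxifen at 50 mg/kg is given in the labels for all samples. It was injected into the peritoneum 2 times a day for 5 days from 6 weeks of age, and again for 5 days after a pause of 7 days. Tissue came from adults, on a background that combined C57BL/6N with B6;129S6. The 2 genotypes and 2 regions made 4 groups of 3 samples. Samples are named here by the number in their title: 41, 49 and 71 for dorsal controls, 40, 43 and 64 for dorsal cKO, 41, 49 and 50 for ventral controls, and 40, 63 and 64 for ventral cKO. The labels do not state that a number is an animal's, so p-values measure the spread between these samples.

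Glucocorticoid hormones cross the cell membrane and bind a receptor that waits in the cytoplasm with heat shock proteins. The bound receptor, encoded by Nr3c1, moves to the nucleus and regulates genes that carry its response element or that it reaches through other factors. The hippocampus is rich in this receptor and in the related mineralocorticoid receptor, encoded by Nr3c2, and takes part in the feedback that ends a stress response. The members were read in 5 roles: feedback and signalling (Fkbp5, Sgk1, Tsc22d3, Nfkbia, Errfi1, Ddit4, Map3k6, Rasd1, Tiparp, Arrdc2), transcription factors (Zbtb16, Hif3a, Bcl6, Cebpb, Cebpd), cell cycle inhibitors (Cdkn1a, Cdkn1b), metabolism and transport (Pdk4, Plin4, Sult1a1, Gpd1, Angptl4, Xdh, Slc2a3, Mfsd2b, Lcn2), and small GTPases, adhesion and cytoskeleton (Rhob, Rhou, Arl4d, Nedd9, Sdc4, Tgm2, Fam107a, Mertk).

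The receptor's element consists of a pair of half-sites, AGAACA and its reverse complement, 3 bases apart. The RefSeq table of promoter windows (GRCm38.p6, 250 bases before to 50 after a gene's start) held 38 windows for 26 members. Angptl4, Gpd1, Zbtb16, Rasd1, Tgm2, Xdh, Slc2a3 and Cebpd were not matched. Both strands were searched. The full element, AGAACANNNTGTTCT, occurred in 3 of 32851 windows of all genes (0.00913%), and 1 of these belonged to Sgk1. Sgk1 had several windows, at different starts, and only the window from chr10:21993640 held the full element. There the letters were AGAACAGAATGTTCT, with the first base 189 bases before that window's start. The half-site AGAACA, which the full element contains, was in 8 of 38 member windows (21.1%) and in 19% of all windows. These 8 windows came from 5 members (Bcl6, Fam107a, Sgk1, Sult1a1 and Tsc22d3), and those of Fam107a overlap and hold the same half-sites. The cyclic AMP response element TGACGTCA was in 1.79% of all windows and in those of Arl4d (26 bases before the start) and Errfi1 (51 bases before). The letters TATAAA were in 6 member windows (Cebpb, Errfi1, Nedd9, Nfkbia and Sgk1) and in 13.6% of all. These matches describe letters in a window and do not show binding.

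The 250 bases before a window's RefSeq start are given for 4 members, and for Sgk1 this is the start of the window with the full element. The starts used for Sgk1, Bcl6 and Tsc22d3 lie inside the gene's span in GENCODE M21. These spans are chr10:21882184-21999903, chr16:23965052-23988852 and chrX:140539528-140600659. Sgk1 holds the full element, Bcl6 and Tsc22d3 are members lower in ventral hippocampus with a half-site only, and Arl4d, also lower there, has the cyclic AMP element and no half-site in its window. Each is written 5′ to 3′ on the gene's strand, and capitals mark the letters of the full element, a half-site or the cyclic AMP element. The positions are chr10:21993640-21993889 (+ strand) for Sgk1, chrX:140600523-140600772 (- strand) for Tsc22d3, chr16:23981284-23981533 (- strand) for Bcl6 and chr11:101665291-101665540 (+ strand) for Arl4d.
Sgk1: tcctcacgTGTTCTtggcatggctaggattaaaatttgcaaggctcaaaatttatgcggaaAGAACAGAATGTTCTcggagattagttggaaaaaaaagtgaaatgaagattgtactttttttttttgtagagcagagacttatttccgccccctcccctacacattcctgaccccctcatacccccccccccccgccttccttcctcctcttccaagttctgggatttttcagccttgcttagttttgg
Tsc22d3: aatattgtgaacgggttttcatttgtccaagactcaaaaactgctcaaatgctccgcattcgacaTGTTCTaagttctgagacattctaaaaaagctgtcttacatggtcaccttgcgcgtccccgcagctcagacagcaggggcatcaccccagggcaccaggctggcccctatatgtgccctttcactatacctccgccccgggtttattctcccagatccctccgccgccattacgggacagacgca
Bcl6: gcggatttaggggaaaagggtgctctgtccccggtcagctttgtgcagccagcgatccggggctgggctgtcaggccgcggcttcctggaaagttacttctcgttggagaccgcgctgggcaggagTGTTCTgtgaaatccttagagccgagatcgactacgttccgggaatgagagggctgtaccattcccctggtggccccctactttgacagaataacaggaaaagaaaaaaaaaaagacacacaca
Arl4d: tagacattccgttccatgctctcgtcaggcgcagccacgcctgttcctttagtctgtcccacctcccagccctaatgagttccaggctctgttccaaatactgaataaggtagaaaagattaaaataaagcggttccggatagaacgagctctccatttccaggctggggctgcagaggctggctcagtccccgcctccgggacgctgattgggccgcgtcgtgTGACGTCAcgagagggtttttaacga

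Totals were 5.12 to 15.9 M counts per sample (median 9.07 M). Levels are counts per 1000000 of a sample's total (CPM), with the SD between its group's 3 samples. Because the libraries read 3′ ends, 1 transcript gives about 1 tag whatever its length. Markers of excitatory neurons were present in every sample, with a summed level of 3547 to 4874 CPM over 6 genes. Tet3 itself did not pass the test for genotype, with log2 fold changes of 0.18 ± 0.12 (SE) in dorsal and 0.05 ± 0.17 in ventral hippocampus. A 3′ tag outside the deleted part checks nothing, and where the deletion lies is not given in the sources used here. In tissue, fewer cells of a type and less RNA per cell cannot be told apart. The filter on low counts kept 33 members in the dorsal fit and 30 in the ventral fit. Mfsd2b, which encodes a lipid exporter of blood cells, was too low in both, and Hif3a, Lcn2 and Pdk4 were too low in ventral hippocampus alone. In the joint fit of all 12 samples 33 members were tested. The set ranged in abundance from Mfsd2b at 0.656 ± 0.104 CPM in dorsal controls to Mertk at 134 ± 22.7 and Nfkbia at 129 ± 25.4 CPM.

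**Figure D1:**
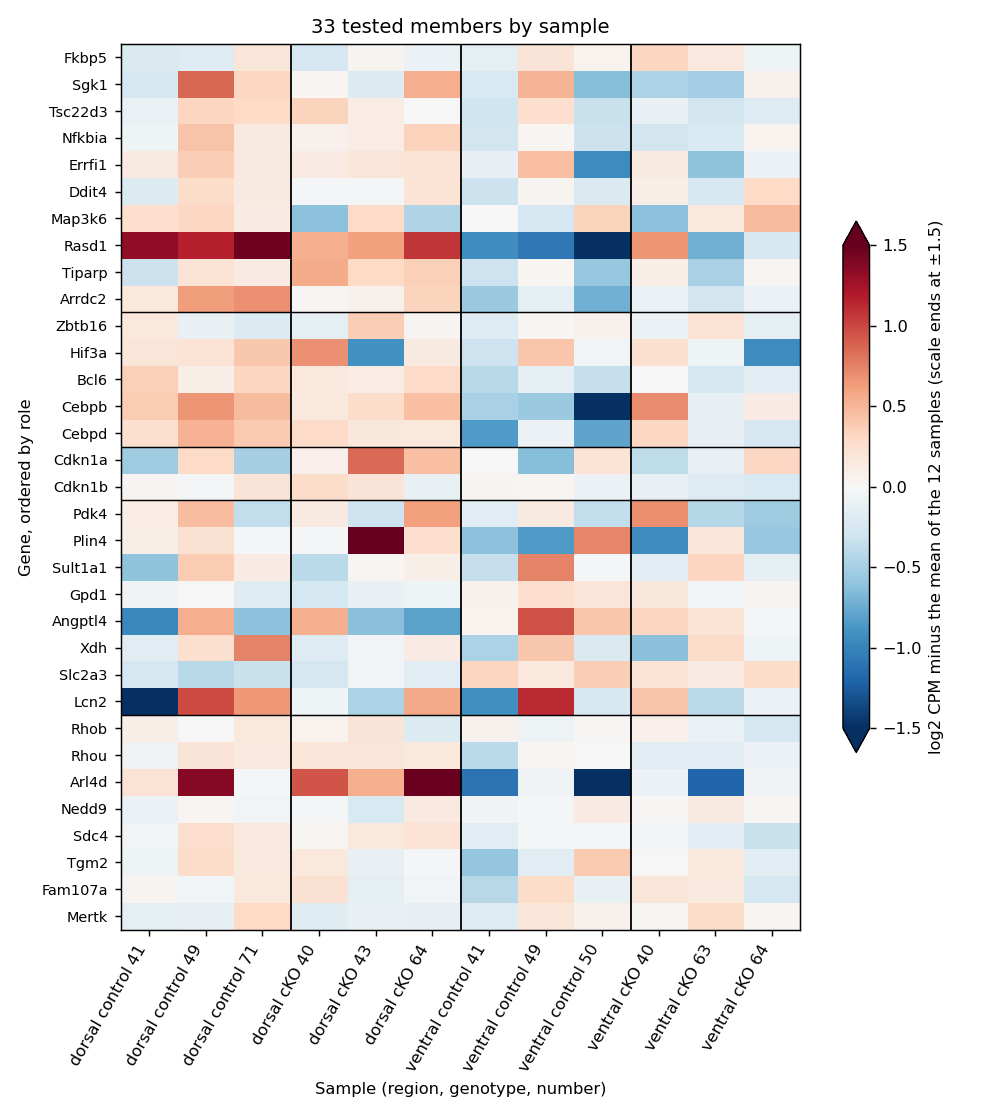
Log2 CPM of the 33 tested members (rows, ordered by role, with lines between roles) in each of the 12 samples (columns), minus the gene's mean over the 12 samples. Rasd1 and Arl4d have wide ranges, with most dorsal columns above the ventral ones, and Slc2a3 has the opposite order.

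The first question was whether the members differed between cKO and control in dorsal hippocampus. None of the 33 tested members passed the threshold of adjusted p under 0.05 in edgeR's quasi-likelihood test, where 0% of all 15692 tested genes passed. At an unadjusted p under 0.05, 4 members (Rasd1, Tiparp, Cdkn1a and Arrdc2) stood against 4.9% of all genes. DESeq2 called 1 member, Rasd1, and limma-voom called none. The median log2 fold change was -0.03 for the members and 0.00 for all genes. Marker lists with fold changes all on one side of 0 in dorsal cKO were choroid plexus, with all 13 tested genes below 0 (median -0.52), red cells, with all 4 below 0 (median -0.62), and immediate early genes, with all 10 above 0 (median 0.22). None of these genes was called with edgeR, DESeq2 or limma-voom, and at an unadjusted p under 0.05 there were 0, 0 and 1. Their summed levels in dorsal controls and cKO were 269.6 to 5126 and 380.3 to 3245 CPM for choroid plexus, 11.6 to 75.99 and 10.8 to 37.5 CPM for red cells, and 911 to 1344 and 1138 to 1476 CPM for immediate early genes, overlapping in each case. Their part in the members' values was not tested.

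Among the feedback and signalling genes, Rasd1, a Ras-related G protein named for its induction by dexamethasone, stood at 52.4, 48.4 and 57.1 CPM in dorsal controls 41, 49 and 71, and at 30.9, 32.5 and 46.1 CPM in dorsal cKO 40, 43 and 64. Every cKO sample lay below every control, by 48.4 against 46.1 CPM at the nearest. The log2 fold change was -0.59 ± 0.13 (SE), with edgeR's adjusted p = 0.582, the 12th lowest p of all tested genes. DESeq2 gave an adjusted p of 0.0362, and over all alternative analyses the adjusted p ran from 0.000226 to 1. Tiparp, a mono-ADP-ribosyltransferase, measured 15.2, 22.8 and 20.8 CPM in control and 29.04, 24.1 and 25.99 CPM in cKO tissue, again without overlap, for a log2 fold change of 0.40 ± 0.15 (edgeR adjusted p = 0.932). Arrdc2, an arrestin-domain protein, read 15.2, 21.9 and 21.9 CPM in controls and 14.1, 14.5 and 18.2 CPM in cKO samples. Control 41 lay within the cKO range, and the log2 fold change was -0.39 ± 0.16 (adjusted p = 0.968). Of the 10 genes of this role, 9 had fold changes below 0, with a median of -0.04.

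The cell cycle inhibitor Cdkn1a (p21) read 3.68, 6.99 and 3.76 CPM in dorsal controls and 5.97, 10.3 and 8.01 CPM in dorsal cKO samples. The groups overlapped through control 49 and cKO 40, and the log2 fold change was 0.72 ± 0.27 (edgeR adjusted p = 0.932). Plin4, a coat protein of lipid droplets, was 3.45, 3.93 and 3.12 CPM in controls and 3.25, 10.2 and 4.1 CPM in cKO samples. Only cKO 43 stood out, and the log2 fold change of 0.75 ± 0.36 (adjusted p = 0.968) became -0.000411 without that sample. Slc2a3, the glucose transporter GLUT3 of neurons, read 83.1, 76.97 and 77.98 CPM in controls and 84.9, 98.7 and 94.2 CPM in cKO samples, with no overlap and a log2 fold change of 0.19 ± 0.09 (adjusted p = 0.968). In all, 3 of 33 members had groups that did not overlap, 2 higher and 1 lower in cKO, where 11.4% of all tested genes did so (7.82% higher and 3.56% lower). Among the best known receptor targets, Fkbp5, a co-chaperone that lowers the receptor's hormone binding, had a log2 fold change of -0.03 ± 0.11, and Tsc22d3 (GILZ), an anti-inflammatory leucine zipper protein, had -0.03 ± 0.12.

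In ventral hippocampus the same comparison again called none of the 30 tested members with edgeR, where 0% of all 15102 genes passed. Neither DESeq2 nor limma-voom called a member. At an unadjusted p under 0.05, 3 members (Cebpb, Rasd1 and Cebpd) stood against 7.23% of all genes. The median log2 fold change was 0.04 for members and 0.00 for all genes. The groups did not overlap for 3 members, with Cebpb and Rasd1 higher and Cdkn1b lower in cKO, against 13.1% of all genes (4.77% higher and 8.34% lower).

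Cebpb, a basic leucine zipper transcription factor, was at 9.5, 9.18 and 2.89 CPM in ventral controls 41, 49 and 50, and at 21.8, 12.1 and 14.6 CPM in ventral cKO 40, 63 and 64. Control 50 was the lowest control and cKO 40 the highest cKO sample, and the groups did not overlap. The log2 fold change was 1.17 ± 0.34 (SE, edgeR adjusted p = 0.608). Rasd1 had the same samples at its ends, with 10.9, 10.03 and 1.13 CPM in controls and 32.8, 12.4 and 17.8 CPM in cKO samples. Its log2 fold change was 1.5 ± 0.50 (adjusted p = 0.609). Without control 50 it was 1.04, and without cKO 40 it was 1.01. Cebpd, a relative of Cebpb, read 10.1, 17.7 and 10.6 CPM in controls and 22.5, 16.6 and 15.4 CPM in cKO samples, so control 49 lay above cKO 63 and 64. Its log2 fold change was 0.57 ± 0.23 (adjusted p = 0.633). All 4 tested transcription factors had fold changes above 0, and none passed the test. Hif3a, the factor too low to test, had a lower mean in cKO, at 0.98 ± 0.49 CPM against 1.24 ± 0.42 CPM in controls. The next lowest p-values belonged to Arrdc2 (0.32 ± 0.19), the mTORC1 inhibitor Ddit4 (0.23 ± 0.14) and the transcriptional repressor Bcl6 (0.17 ± 0.12), given as log2 fold changes with their SE. The 6 tested genes of metabolism and transport all had fold changes below 0, and none passed. They ran from -0.33 for Angptl4, an inhibitor of lipoprotein lipase, to -0.02 for Xdh, the xanthine dehydrogenase. Of the untested genes of this role, Pdk4 averaged 1.25 CPM in ventral cKO and 1.12 CPM in ventral controls. Mfsd2b averaged 0.498 and 0.409 CPM, and Lcn2 0.661 and 0.843 CPM, so not all of the role was lower in cKO.

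Choroid plexus markers had lower mean levels in ventral cKO. Their summed level was 3383 to 4750 CPM in ventral controls and 216, 2646 and 179.6 CPM in ventral cKO 40, 63 and 64. All 15 markers had fold changes below 0 in cKO, 13 at an unadjusted p under 0.05 and none at an adjusted one with edgeR, DESeq2 or limma-voom, with a median of -1.86. With these markers as a covariate, Cebpb had a log2 fold change of 0.87 and Rasd1 one of 0.88, while that of Ddit4 became -0.14, and none was called. Immediate early genes, which neurons switch on within minutes of activity, had higher mean levels in ventral cKO: all 10 had fold changes above 0 (median 0.63), 5 at an unadjusted p under 0.05 and none at an adjusted one with edgeR or limma-voom, while DESeq2 called 1, Egr1. Among them Egr1 had 0.65 ± 0.14, Nr4a1 0.78 ± 0.25, Arc 0.71 ± 0.23 and Fos 1.30 ± 0.45. Their summed level was 504 to 767 CPM in ventral controls and 825 to 1002 CPM in ventral cKO samples. Meningeal markers (7 of 7 tested, median -0.33) and red cell markers (4 of 4, median -0.46) lay below 0 and excitatory neuron markers (6 of 6, median 0.24) above 0, with 2, 0 and 1 at an unadjusted p under 0.05 and none called with edgeR, DESeq2 or limma-voom. The part of these lists in the values of Rasd1 and Cebpb was not tested beyond that covariate.

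**Figure D2:**
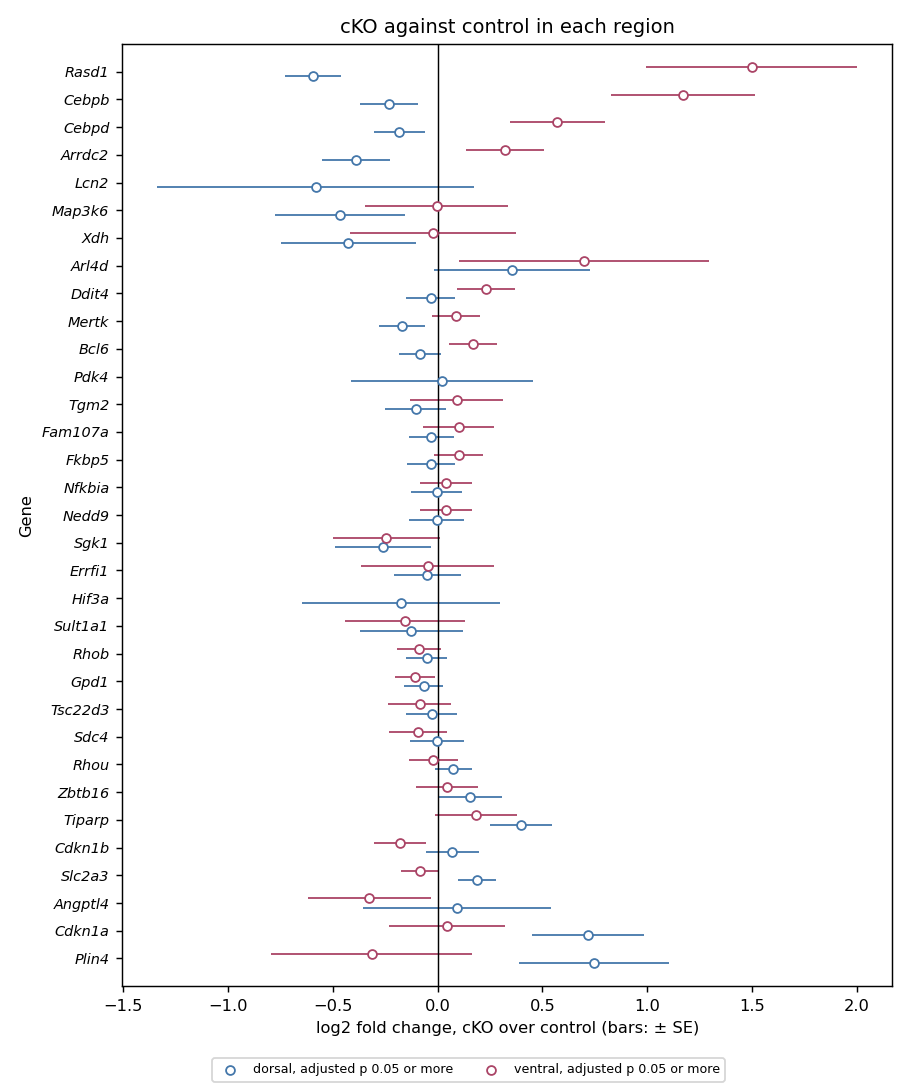
Log2 fold change of cKO over control (x axis, bars ± SE of the edgeR fit) for each tested member (y axis), in dorsal (blue) and ventral (red) hippocampus, ordered by the difference between the regions. All points are open because no member passed adjusted p 0.05, and Rasd1, Cebpb, Cebpd and Arrdc2 at the top lie below 0 in dorsal and above 0 in ventral hippocampus.

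The authors' deposited tables, which compared genotypes with each sequencing run as a separate column, list 2 members below a false discovery rate of 0.05 in dorsal hippocampus (0.564% of all listed genes) and 1 in ventral (1.86%). In the authors' deposited table Rasd1 has a dorsal log2 fold change of -0.66 (false discovery rate 1.22e-07) and Tiparp one of 0.48 (0.0251). In the authors' deposited table for ventral hippocampus Cebpb has 1.19 (0.00354). The result column of the authors' deposited tables marks Cebpb as up in ventral hippocampus and both dorsal genes as having no change. The sizes are near those from summed runs, where a sample counted once and none of the 3 passed in the main edgeR fit. On summed runs DESeq2 called dorsal Rasd1 (adjusted p = 0.0362). The edgeR fit without a filter called dorsal Rasd1 (adjusted p = 0.000226) and ventral Cebpb (adjusted p = 7.22e-07). What made the deposited calls differ from the main fit was not tested.

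The difference of the genotype effect between regions was tested as an interaction, ventral minus dorsal. No member of 33 passed with edgeR, and 0% of all 16414 genes did. DESeq2 and limma-voom called no member either. At an unadjusted p under 0.05 there were 5 members (Rasd1, Cebpb, Cebpd, Arrdc2 and Slc2a3), against 7.96% of all genes. Rasd1 was lower in every dorsal cKO sample than in any dorsal control, as were 3.56% of all genes tested there. Rasd1 was higher in every ventral cKO sample than in any ventral control, as were 4.77% of all genes tested there. Its interaction was 2.08 ± 0.54 on the log2 scale (SE, edgeR adjusted p = 0.391). Cebpb had 1.40 ± 0.39 (adjusted p = 0.391), Cebpd 0.76 ± 0.26 (adjusted p = 0.482) and Arrdc2 0.71 ± 0.25 (adjusted p = 0.482). Slc2a3 went the other way, with -0.27 ± 0.13 (adjusted p = 0.623), and Bcl6 had 0.25 ± 0.15 (adjusted p = 0.716). The members' median was 0.05, against -0.01 over all genes.

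The members differed most between the regions themselves. Over both genotypes, 10 of 33 tested members were called lower in ventral than in dorsal hippocampus, where 7.43% of all genes were called lower. Another 2 were called higher, where 6.67% of all genes were, so that 12 of 33 members stood against 14.1% of all genes called. The members' median log2 fold change was -0.23, against 0.00 for all genes, and 8 of 33 lay above 0, as 50% of all genes did. By role, 5 of 10 feedback and signalling genes and 3 of 5 transcription factors were called lower, as were 2 of 8 genes of small GTPases, adhesion and cytoskeleton. Of 8 tested genes of metabolism and transport 2 were called higher and none lower, and neither cell cycle inhibitor was called.

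Rasd1 had the largest region difference among the called members. It averaged 52.6 ± 4.38 CPM (SD, n = 3) in dorsal controls and 36.5 ± 8.37 in dorsal cKO, against 7.35 ± 5.4 in ventral controls and 20.98 ± 10.6 in ventral cKO. Ventral cKO 40, at 32.8 CPM, was the ventral sample that reached into the dorsal range. The ventral over dorsal log2 fold change was -1.75 ± 0.27 (SE, edgeR adjusted p = 0.000231). Arrdc2 read 9.31, 12.7 and 8.3 CPM in ventral controls and 12.7, 11.2 and 13.00 CPM in ventral cKO samples, all below the lowest dorsal sample at 14.1 CPM. Its log2 fold change was -0.64 ± 0.12 (adjusted p = 0.00176). Tiparp (-0.40 ± 0.13, adjusted p = 0.0461), Nfkbia (-0.34 ± 0.09, adjusted p = 0.0184), which encodes the inhibitor of NF-κB, and Tsc22d3 (-0.33 ± 0.10, adjusted p = 0.0453) were lower by smaller amounts with overlapping samples. Tsc22d3, for example, was 56.9, 78.9 and 74.7 CPM in dorsal controls and 78.95, 67.2 and 64.3 CPM in dorsal cKO samples. It was 50.3, 75.1 and 49.7 CPM in ventral controls and 56.5, 50.4 and 54.2 CPM in ventral cKO samples. Ventral control 49 sat among the dorsal samples. Tsc22d3 and Tiparp were each called in 9 of 23 alternative analyses of this comparison, so both rest near the threshold.

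Fkbp5 and Sgk1, a kinase regulated by serum and glucocorticoids, were not called. Fkbp5 spanned 86.00 to 113 CPM over the 6 dorsal samples and 93.1 to 125 CPM over the 6 ventral ones, for a log2 fold change of 0.17 ± 0.09 (edgeR adjusted p = 0.227). Sgk1, the member with the full element in a promoter window, was 26.4, 59.9 and 39.3 CPM in dorsal controls and 27.4, 46.9 and 20.8 CPM in ventral controls, with sample 49 the highest of each group. In cKO it was 33.1, 27.9 and 48.9 CPM in dorsal and 22.7, 22.2 and 33.6 CPM in ventral samples, with 64 the highest of each. Its region difference was -0.43 ± 0.20 (adjusted p = 0.181).

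Among the transcription factors, Bcl6 separated the regions fully. It was 71.6, 61.4 and 69.7 CPM in dorsal controls and 63.8, 61.4 and 71.9 CPM in dorsal cKO samples, against 42.4, 52.1 and 45.04 CPM in ventral controls and 55.8, 46.5 and 50.8 CPM in ventral cKO samples. Every ventral sample was below every dorsal one, and the log2 fold change was -0.44 ± 0.08 (SE, edgeR adjusted p = 0.000535). Cebpd, at 21.4, 26.97 and 23.7 CPM in dorsal controls and 22.7, 20.8 and 21.3 CPM in dorsal cKO samples, had a log2 fold change of -0.58 ± 0.13 (adjusted p = 0.00561). Cebpb, at 17.3, 21.8 and 18.4 CPM in dorsal controls and 15.2, 16.4 and 19.2 CPM in dorsal cKO samples, had -0.70 ± 0.20 (adjusted p = 0.0236). Ventral cKO 40 reached the dorsal range for Cebpb and Cebpd, as it did for Rasd1. Zbtb16 and Hif3a, the other two factors, had -0.05 ± 0.11 and -0.33 ± 0.35 and did not pass.

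Arl4d, a small GTPase of the ARF family, was a low-count gene with a large difference. It read 2.34, 5.79 and 1.94 CPM in dorsal controls and 4.21, 3.09 and 6.45 CPM in dorsal cKO samples, against 0.755, 1.98 and 0.252 CPM in ventral controls and 1.85, 0.68 and 1.94 CPM in ventral cKO samples. The highest ventral samples met the lowest dorsal one, control 71. The log2 fold change was -1.68 ± 0.37 (SE, edgeR adjusted p = 0.00478). Rhou, an atypical small GTPase, was lower by less, at -0.27 ± 0.08 (adjusted p = 0.0227). Ventral control 49, at 91.4 CPM, lay above dorsal control 41, at 82.8 CPM. The other 6 genes of this role (Rhob, Nedd9, Sdc4, Tgm2, Fam107a and Mertk) lay between -0.26 for the heparan sulfate proteoglycan Sdc4 and 0.12 for Mertk, a receptor for engulfing dead cells.

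Both members that were higher in ventral hippocampus belong to metabolism and transport. Slc2a3 was 126, 115 and 131 CPM in ventral controls and 115, 108 and 122 CPM in ventral cKO samples, all above the highest dorsal sample at 98.7 CPM. The log2 fold change was 0.49 ± 0.06 (SE, edgeR adjusted p = 3.34e-05). Gpd1, a glycerol-3-phosphate dehydrogenase, was 83.6, 89.5 and 76.05 CPM in dorsal controls and 74.6, 82.1 and 87.7 CPM in dorsal cKO samples. It was 92.3, 108 and 101 CPM in ventral controls and 98.04, 84.7 and 90.8 CPM in ventral cKO samples. The groups overlapped within cKO and across genotypes, though not between the controls. Its log2 fold change was 0.23 ± 0.06 (adjusted p = 0.0241). Across the 6 dorsal and 6 ventral samples, Arrdc2, Bcl6 and Slc2a3 were the 3 members of 33 without overlap, against 7.44% of all genes (4.11% lower and 3.33% higher). Slc2a3, Rasd1, Bcl6, Arrdc2 and Arl4d were called in every alternative analysis of the region difference that tested them, while Nfkbia, Rhou, Cebpb, Cebpd and Gpd1 each lost the call in some. Without dorsal control 49 or without ventral cKO 63, 5 members instead of 10 were called lower. Over all single samples left out, 1844 to 2261 of all genes were called in either direction, against 2313 in the main fit.

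On GRCm38 with GENCODE M21, Rasd1 spans chr11:59963181-59964944 (- strand), Arrdc2 chr8:70835129-70839720 (- strand), Bcl6 chr16:23965052-23988852 (- strand), Arl4d chr11:101665541-101667832 (+ strand) and Slc2a3 chr6:122727809-122801640 (- strand), all protein-coding. The tags come from the 3′ ends of such genes.

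The 21 tested members that were not called between regions had log2 fold changes from -0.76 (Plin4) to 0.52 (Angptl4). Plin4 had -0.76 ± 0.34 (SE, edgeR adjusted p = 0.159) and Angptl4 0.52 ± 0.30 (adjusted p = 0.29). Angptl4 read 1.45, 4.91 and 1.94 CPM in dorsal controls and 3.33, 6.64 and 4.4 CPM in ventral controls. The cell cycle inhibitors Cdkn1a and Cdkn1b (p27) had -0.23 ± 0.21 and -0.20 ± 0.09. In feedback and signalling, Errfi1, an inhibitor of the EGF receptor, had -0.33 ± 0.18, Ddit4 -0.11 ± 0.10 and the kinase Map3k6 0.03 ± 0.24. In metabolism, the pyruvate dehydrogenase kinase Pdk4 had -0.19 ± 0.33, Xdh -0.27 ± 0.26, Sult1a1 0.13 ± 0.21 and Lcn2 -0.15 ± 0.61. Pdk4, Xdh and Lcn2 stayed under 4 CPM in every sample, and for Pdk4 and Lcn2 the SE exceeded the size of the difference. Mfsd2b, not tested, ranged from 0.217 to 0.782 CPM over the 12 samples, on 2 to 9 counts.

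**Figure D3:**
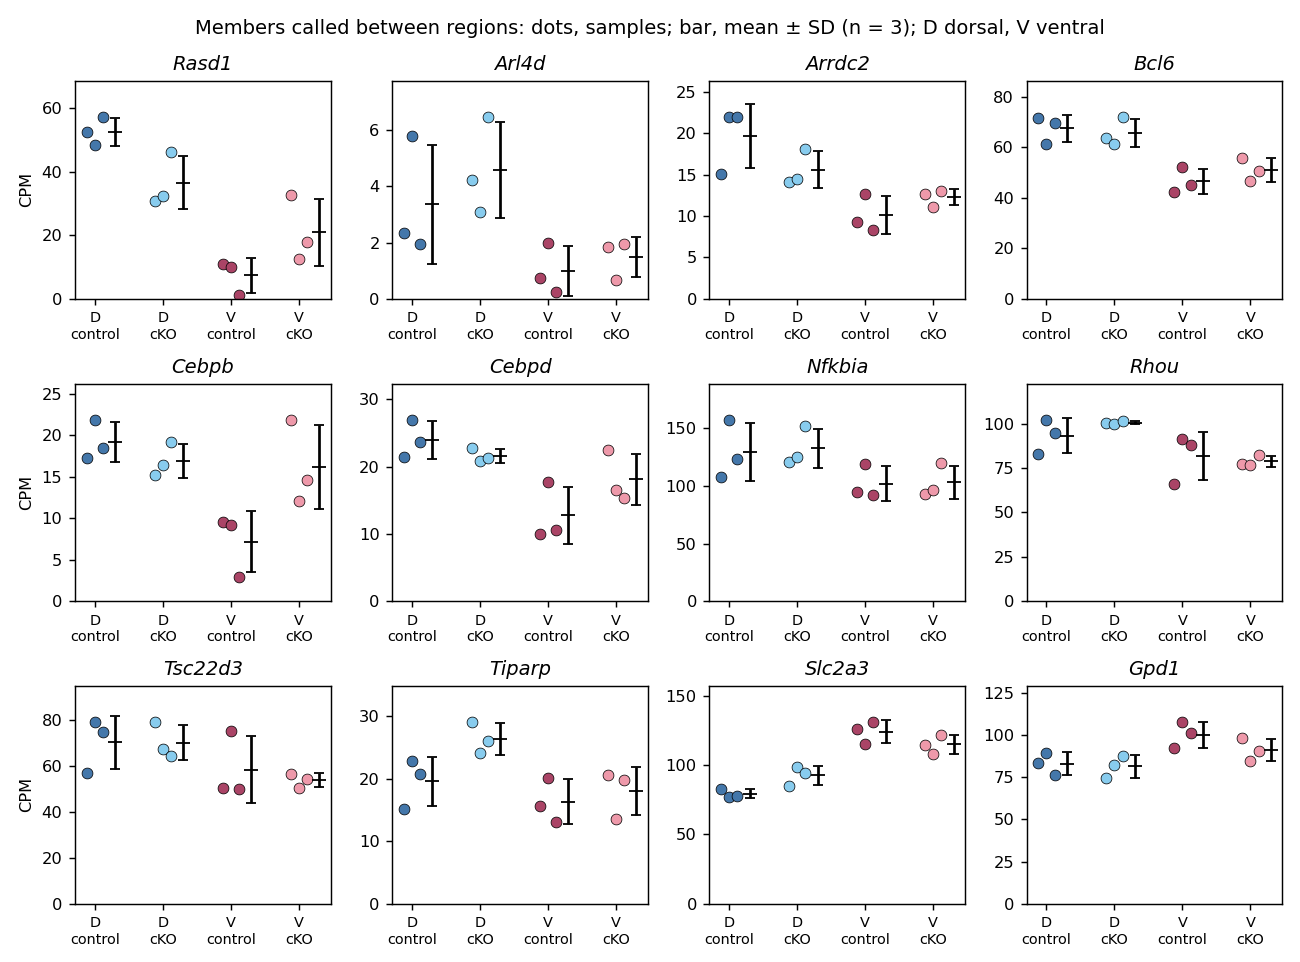
CPM (y axes, from 0) of the 12 members called between regions, in the 4 groups on each x axis. Dots are samples and bars are the mean ± SD of 3 samples. Rasd1, Arrdc2 and Bcl6 are lower in ventral groups and Slc2a3 is higher, while Tsc22d3, Tiparp and Nfkbia overlap between regions.

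Oligodendrocyte markers moved with region too. All 9 were called lower in ventral hippocampus (median -1.41). Their summed level was 7535 to 7931 CPM in dorsal controls and 7628 to 9122 CPM in dorsal cKO samples, against 2647 to 3550 and 2964 to 3287 CPM in ventral controls and cKO, with no marker at 0 in any group. Of 6 excitatory neuron markers 2 were called lower (median -0.24), and of 8 astrocyte markers 1 was, as was 1 of 7 microglia and 1 of 5 interneuron markers. Of 7 tested meningeal markers 1 was called higher, Dcn, at 2.5 ± 0.15 (edgeR adjusted p = 9.45e-09), while the list's median was -0.32. Of 11 endothelial and mural markers 1 was called higher and 1 lower, and of 4 tested red cell markers none was called with edgeR, DESeq2 or limma-voom, with 0 at an unadjusted p under 0.05 and all below 0 (median -0.36). Choroid plexus markers lay above 0 for 13 of 15 (median 0.61), and between the controls for 15 of 15 (median 1.26). With edgeR and DESeq2 none of these was called in either comparison, and at an unadjusted p under 0.05 edgeR had 1 and 2, while limma-voom called 1 higher over both genotypes and 6 between the controls. Their summed levels overlapped between regions, at 269.6 to 5126 CPM in dorsal and 3383 to 4750 CPM in ventral controls. Dissection and tissue makeup cannot be told apart from region here, and their part in the members' differences was not tested.

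Region was then compared within each genotype. Between the controls, 7 of 33 members were called, against 7.86% of all genes. Rasd1 (-2.79 ± 0.40), Arl4d (-1.85 ± 0.54), Cebpb (-1.40 ± 0.28), Arrdc2 (-1.0 ± 0.17), Cebpd (-0.97 ± 0.19) and Bcl6 (-0.57 ± 0.11) were lower in ventral controls, given as log2 fold changes with their SE, where 4.38% of all genes were called lower. Their edgeR adjusted p-values ran from 0.000223 for Rasd1 to 0.0435 for Arl4d. Slc2a3 was higher, at 0.62 ± 0.09 (adjusted p = 0.000207), where 3.48% of all genes were. The call of Arl4d was lost without dorsal control 41 (adjusted p = 0.0549) or 49 (0.218) and without ventral control 41 (0.146) or 50 (0.143).

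Between the cKO groups 1 of 33 members was called, against 6.16% of all genes. This was Slc2a3, higher in ventral cKO by 0.35 ± 0.09 (SE, edgeR adjusted p = 0.0236), where 2.83% of all genes were called higher and 3.33% lower. The adjusted p rose to between 0.0636 and 0.104 when dorsal cKO 40 or 64, or ventral cKO 40 or 64, was left out. The next lowest p-values belonged to Bcl6 (-0.32 ± 0.11), Arl4d (-1.51 ± 0.51), Rhou (-0.31 ± 0.11), Tiparp (-0.51 ± 0.18) and Plin4 (-1.28 ± 0.48), none of which passed. Without dorsal cKO 43 the log2 fold change of Plin4 was -0.54. Rasd1 had -0.71 ± 0.37 and Cebpb 0.00 ± 0.27 in the cKO groups. In cKO, 10 members had ventral samples all below the dorsal ones, against 15.1% of all genes, and 5 did so in the controls, against 11.8%. The region differences of the genotypes differ by the interaction given above, which called no member, so the counts of 7 and 1 do not show that region acted differently in the genotypes. The controls and cKO samples are different samples, but each region comparison uses the same groups as the genotype comparisons.

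**Figure D4:**
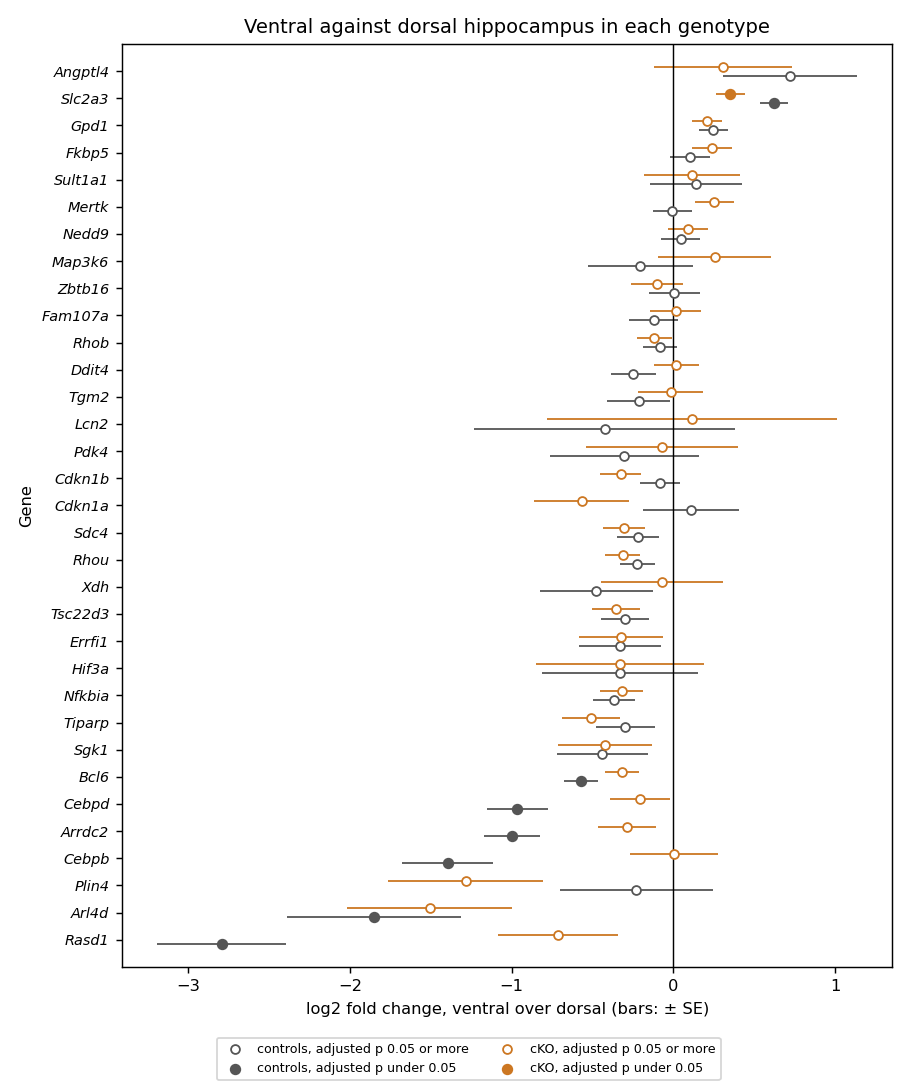
Log2 fold change of ventral over dorsal hippocampus (x axis, bars ± SE of the edgeR fit) for each tested member (y axis), in controls (grey) and cKO (orange), with filled points for adjusted p under 0.05. Rasd1, Arrdc2 and Cebpd lie further below 0 in controls than in cKO, and Slc2a3 is filled in both. Cebpb lies below 0 in controls and at 0.00 in cKO.

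The genes that make and carry the signal were read from a separate list of 22 receptors, chaperones, coregulators and steroid enzymes, 20 of them tested. For genotype none was called with edgeR, DESeq2 or limma-voom. With edgeR 1 in dorsal and 0 in ventral hippocampus had an unadjusted p under 0.05. Between regions 2 of 20 were called lower and none higher, against 14.1% of all genes called, with 9 above 0, 11 below and a median of -0.04. The 2 were Nr3c1 and Hsd11b1. Nr3c1, the glucocorticoid receptor, was 147, 132 and 128 CPM in dorsal controls and 162, 137 and 140.1 CPM in dorsal cKO samples, against 124, 91.5 and 117 CPM in ventral controls and 100.1, 108 and 123 CPM in ventral cKO samples. It was lower in ventral hippocampus by a log2 fold change of -0.34 ± 0.08 (SE, edgeR adjusted p = 0.0082), with all 6 ventral samples below all 6 dorsal ones (4.11% of all genes lay so). Hsd11b1, the enzyme that regenerates active hormone from its inactive form, was lower by more, at -0.89 ± 0.11 (adjusted p = 1.86e-05), and was also called within controls (-0.98 ± 0.15) and within cKO (-0.80 ± 0.15). Nr3c2, the mineralocorticoid receptor, had -0.26 ± 0.14 (adjusted p = 0.276) and was not called. The genotype values of Nr3c1 were 0.08 ± 0.09 in dorsal and 0.01 ± 0.12 in ventral hippocampus, and those of Nr3c2 were 0.05 ± 0.11 and 0.23 ± 0.24.

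A further list held 15 other genes known as receptor targets. With edgeR, DESeq2 or limma-voom none was called for genotype, and with edgeR 5 in dorsal and 3 in ventral hippocampus had an unadjusted p under 0.05, where 4.9% and 7.23% of all genes had. Between regions 4 of 15 were called lower in ventral hippocampus and none higher, where 7.43% of all genes were called lower and 6.67% higher, with 14 of 15 below 0 and a median of -0.20. The 4 were Glul, the glutamine synthetase of astrocytes (-0.32 ± 0.05), the transcription factor Klf9 (-0.27 ± 0.05), the thioredoxin inhibitor Txnip (-0.57 ± 0.15) and the antiproliferative gene Tob2 (-0.45 ± 0.13). Immediate early genes showed the same order, with 5 of 10 called lower in ventral hippocampus (median -0.67), among them Arc (-1.08 ± 0.16), Nr4a1 (-0.95 ± 0.15), Egr1 (-0.85 ± 0.12) and Egr4 (-0.50 ± 0.08). Their summed level was 911 to 1344 CPM in dorsal controls and 1138 to 1476 CPM in dorsal cKO samples. All dorsal samples lay above the ventral controls given earlier, but ventral cKO 64, at 1002 CPM, lay above dorsal control 41. Its part in the members' region differences was not tested.

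Samples of one group also differed from each other in many members at once. Control samples numbered 49 stood above those numbered 41 in both regions for 22 of 33 members, where 25.5% of all genes did so, and below them in both regions for 4, against 27.2% of all genes. This pair was chosen after its values were seen. In the cKO samples, 64 was above 40 in both regions for 13 members (24.8% of all genes) and below for 9 (25.9%). Sgk1, given above, was 1.12 higher in dorsal 49 than in dorsal 41 on the log2 CPM scale and 0.74 higher in ventral 49 than in ventral 41. Angptl4 differed by 1.51 and 0.90, Arl4d by 1.15 and 1.06, and the sulfotransferase gene Sult1a1 by 0.98 and 1.10. Lcn2, an iron carrier of inflammation, had 0 counts in dorsal 41 and 15 in dorsal 49, and 3 and 13 in ventral 41 and 49. Fkbp5 differed by 0.03 and 0.32. With 1 sample per number and region there is no test. Other markers moved with the numbers. Red cell markers summed to 11.6 CPM in dorsal 41 and 75.99 in dorsal 49, and to 9.25 and 46.9 CPM in ventral 41 and 49. Choroid plexus markers summed to 442 and 5126 CPM in dorsal 41 and 49, and to 4328 and 4750 CPM in ventral 41 and 49. Their part in the members' values was not tested.

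**Figure D5:**
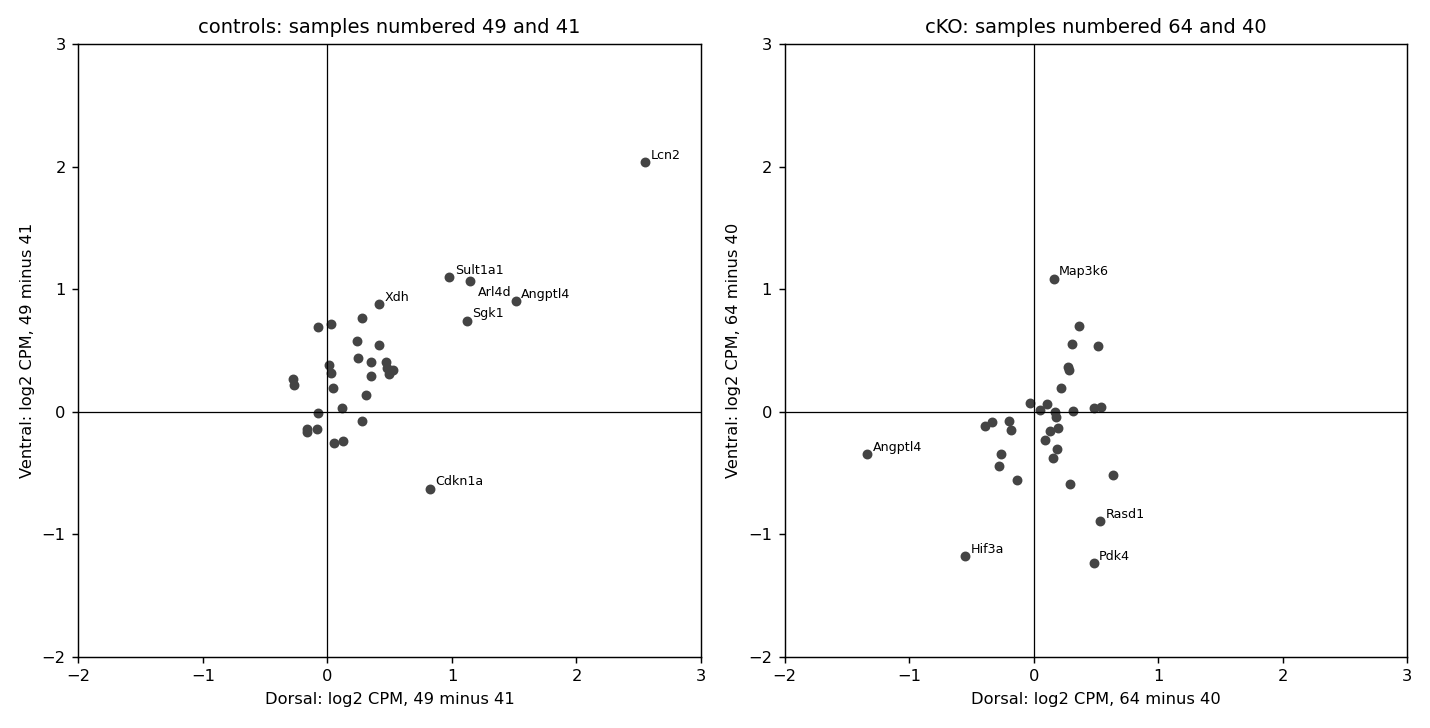
Difference in log2 CPM between 2 samples of one genotype in dorsal (x axis) and ventral hippocampus (y axis), 1 point per tested member, for controls 49 minus 41 (left) and cKO 64 minus 40 (right). In the left panel 22 of 33 points lie in the upper right part, with Lcn2, Angptl4, Sgk1, Arl4d and Sult1a1 farthest out, and in the right panel 13 do.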

How the data were processed

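Hippocampal RNA from 12 mouse samples was profiled with a QuantSeq 3′ kit from 500 ng of Trizol-extracted RNA, per the labels. The deposited tables hold raw counts per gene and run (35 runs), made with cutadapt, HISAT2 and featureCounts on GRCm38 per the submitters' processing notes. Versions, annotation release and strand setting are not given in the sources used here. Of the 34 members, 17 overlap another gene in GENCODE M21, 7 of them a protein-coding one: Bcl6, Cebpb, Cebpd, Plin4, Rhou, Sult1a1 and Tgm2. Rhou lies on the same strand as the protein-coding gene it overlaps, so even a strand setting would not tell their reads apart. The other named members lie opposite theirs, and reads of such genes cannot be told apart without the strand setting. These members' values are uncertain to that extent. Slc2a3 overlaps a processed pseudogene on its own strand. The authors' scaled signal per run (named CPM) is deposited too and was not used. Per the file headers the authors' comparison by edgeR gives log2 fold changes, a log2 CPM, a likelihood ratio score, p-values and false discovery rates.

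Counts were summed over the runs of a sample, so that a sample counts once. Tests used edgeR 4.0.16 in R 4.3.3 (quasi-likelihood, TMM scaling, filterByExpr by group, Benjamini-Hochberg over all tested genes, threshold 0.05), within each region for genotype and over all 12 samples for the interaction and region. Called means past that threshold. SE of a fold change comes from the fit. CPM divides by the sample's total, and log2 CPM between single samples used a prior count of 3. The fits were tested on simulated data first. For groups of 3 the smallest exact permutation p is 0.1, so no such test was run. Alternatives were DESeq2 1.42.0, limma-voom (limma 3.58.1), 2 other ways of scaling, the counts unfiltered or limited to genes averaging 10 or more, single runs, each sample left out, a block for the sample number, the genotype contrast from the fit of all samples and a choroid plexus covariate, which was added after the data were seen for the interaction and region. Members, roles, marker lists and tests were chosen with earlier results of these data known. Full statistics go to the members past the threshold, or to the 6 lowest p where fewer passed. In other lists the 4 lowest p, Nr3c1 and Nr3c2 may be named.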

Additional observations from a re-analysis of the deposited data

Results flagged for a closer look

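Rasd1 drew attention because its cKO samples moved apart from the controls in opposite directions in the regions. In dorsal hippocampus every cKO sample (30.9, 32.5 and 46.1 CPM) was below every control (52.4, 48.4 and 57.1 CPM). In ventral hippocampus every cKO sample (32.8, 12.4 and 17.8 CPM) was above every control (10.9, 10.03 and 1.13 CPM). Of all tested genes, 3.56% lay so in dorsal hippocampus and 4.77% in ventral hippocampus. The share of all genes that did both was not counted, and Rasd1 was picked among the members for this pattern. The difference of the genotype effects was 2.08 on the log2 scale, with an adjusted p of 0.391 from edgeR's quasi-likelihood test of the interaction, so it did not pass after adjustment. Over the samples left out in turn the difference lay between 1.56 and 2.61. Ventral control 50 had 9 counts of Rasd1 in all.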

How the results depend on the processing

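For genotype in dorsal hippocampus, where edgeR called 0 genes, DESeq2 called 16, the fit without a filter 94, run 1 alone 1, the choroid plexus covariate 8, and leaving out single samples 0 to 25. DESeq2 and the unfiltered fit each called 1 member lower, Rasd1. In ventral hippocampus, against 0, DESeq2 called 4 genes, no filter 302, run 1 alone 3 and single samples left out 0 to 55. The unfiltered fit called 2 members higher, Cebpb and Rasd1. For the interaction, against 0, DESeq2 called 27 genes, no filter 265 and single samples left out 0 to 4, with Rasd1 and Cebpb called without a filter. The cause was not tested. Plin4 in dorsal hippocampus ran from -0.000411 to 1.07 (log2) over samples left out, lowest without cKO 43. Ddit4 in ventral hippocampus turned to -0.138 with the choroid plexus covariate.

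Between regions edgeR called 2313 genes, run 1 alone 1149, and single samples left out 1844 to 2261. Members called higher (2) fell to 1 with run 1 or run 3 alone and with the choroid plexus covariate, and ranged from 1 to 2 over samples left out. Members called lower (10) ranged from 5 to 11. Within controls 1290 genes became 675 with run 1 alone, 834 with the covariate and 794 to 1237 with samples left out. Members called there ranged from 5 to 8 lower. Within cKO 1011 genes became 423 with run 1 alone and 644 to 735. The 1 member called higher there became 0 with run 1 or run 3 alone and ranged from 0 to 1. Against 0 members lower, DESeq2 called 1 (Arl4d) and the unfiltered fit 7. In both of these fits the total of all genes called stayed within a ratio of 1.5 of the main 1011. Single-run fits use fewer counts and leave-one-out fits fewer samples.

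Of the sample numbers, 4 (40, 41, 49 and 64) occur in both regions, but the labels do not say what a number marks. With the number as a random replicate block in limma-voom, 2497 genes were called between regions, 1484 within controls, 1058 within cKO and 0 for the interaction, with the same counts of members as the main analysis. As a fixed block over the shared numbers, 1477 genes, 7 members lower and 1 member higher were called. Deviations of same-numbered samples from their group means correlated at 0.04 (40), 0.11 (41), 0.08 (49) and -0.11 (64) over genes. Within a region no number occurs in both genotypes, so no paired analysis of genotype was possible. The members with the fewest counts, Mfsd2b and Lcn2, rest on 0 to 15 counts per sample. Lcn2 passed no test in the main analysis, and Mfsd2b was not tested. Arl4d was called between regions on 2 to 53 counts per sample.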
